A study of Homo sapiens with 2 samples.

Results

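The genes described here are 7 transcription factors of the gut and pancreas lineages, CDX1, CDX2, PDX1, HNF4A, HNF4G, GATA4 and GATA6, among 31845 genes of the expression table. They were chosen by name, with their counts in these libraries known, so their levels are a description and no test was run on them. RNA sequencing compared 1 library of Capan-1 cells, an established cell line from a pancreatic adenocarcinoma that carries mutant BRCA2, with 1 library of an olaparib-resistant derivative. Per the labels, the derivative was made by raising the olaparib concentration in steps from 15 nM to 128 uM, and no other treatment is given for either library. Olaparib inhibits PARP enzymes. The libraries held 34507480 resistant and 34572931 parental counts in all. There is 1 library in each group, so no difference has a replicate check. All directions rest on the assignment of the column named for the parental line to the parental library and of the remaining column, whose heading the labels do not spell out, to the resistant one. Intervals are 95% intervals for counting error only.

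These factors act in a network that divides the gut tube into regions. The caudal homeobox factors CDX1 and CDX2 specify intestine, and loss of CDX2 lets gut epithelium take on stomach features. PDX1, also a homeobox factor, is needed for pancreas and for the distal stomach and duodenum. HNF4A and HNF4G are nuclear receptors that bind the same DNA elements and drive enterocyte and hepatocyte genes, while the zinc finger factors GATA4 and GATA6 act in foregut endoderm, stomach and pancreas, and GATA6 marks the classical form of pancreatic cancer.

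Among the 7, CDX2 differed most between the libraries. It was 7.23-fold higher in the resistant library, while HNF4A was 1.58-fold and HNF4G 1.37-fold higher, GATA6 was at a ratio of 0.986, and GATA4 was 1.54-fold lower. PDX1 and CDX1 had at most 16 counts in either library. Counts are reads per gene as deposited, and ratios use totals adjusted with TMM factors (a trimmed mean that aligns the bulk of genes between libraries). Calls of higher or lower needed 50 counts or more in the library with more, and a log2 ratio, with 1 count added, of 1 or more in size. By that rule 5 of the 7 factors could be called. One of the 5, CDX2, was higher, against 5.47% of the 12143 protein-coding genes at the count minimum, and 0 of the 5 were lower, against 8.75%. The choice of genes used these same counts, so nothing is read from that share. The median log2 ratio was 0.46 over the 5 factors and 0.09 over the coding genes at the minimum.

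**Figure D1:**
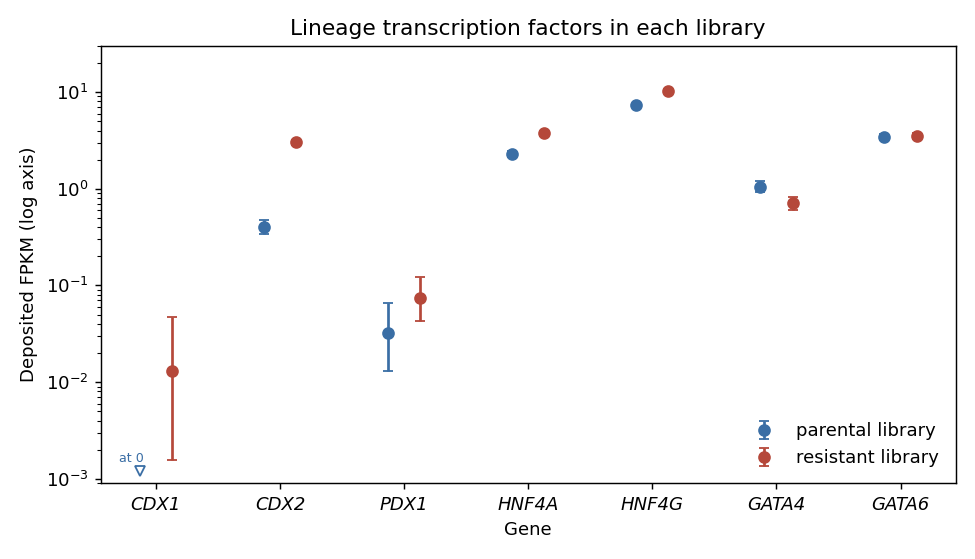
Deposited FPKM values of the 7 transcription factors on a log axis, with the parental library in blue and the resistant library in red. Bars are 95% counting intervals and the open triangle marks CDX1, listed at 0 in the parental library. CDX2 is at 0.403 and 3.02 FPKM, a larger gap than for the 4 other factors above 50 counts.

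CDX2 (ENSG00000165556, chromosome 13) had 145 parental counts against 1042 resistant counts. On the length-adjusted FPKM scale this was 3.02 against 0.403. The resistant library was the higher one, and the ratio of 7.23 had a counting interval of 6.07 to 8.67. Its log2 ratio of 2.85 exceeded that of 99.3% of the 15102 genes of any type at the count minimum. In bulk RNA, more cells with the transcript and more RNA per cell cannot be told apart. Ranked by FPKM among all listed genes, CDX2 stood at percentile 50.5 in the parental library and at percentile 72.3 in the resistant library.

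The window around the start of CDX2 is shown with that of SI, the sucrase-isomaltase gene, because the SI promoter is a textbook binding site of CDX2 and SI had 330 resistant and 3 parental counts. Both come from RefSeq on build GRCh38.p14 and run from 250 bases before to 50 after the annotated start, 5′ to 3′ on the gene's strand. CDX2 lies at chr13:27969266-27969565 on the minus strand and SI at chr3:165078447-165078746 on the minus strand. Capitals mark every match, on either strand, to TTTAT (the core bound by CDX factors), AGATAA (bound by GATA factors) or CAAAGTCCA (bound by HNF4).
CDX2: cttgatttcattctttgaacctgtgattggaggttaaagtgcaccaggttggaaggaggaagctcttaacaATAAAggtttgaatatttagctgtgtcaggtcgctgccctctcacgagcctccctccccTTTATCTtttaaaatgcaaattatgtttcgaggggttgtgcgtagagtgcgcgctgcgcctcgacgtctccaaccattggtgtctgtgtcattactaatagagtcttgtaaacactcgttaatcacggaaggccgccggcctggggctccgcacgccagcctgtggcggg
SI: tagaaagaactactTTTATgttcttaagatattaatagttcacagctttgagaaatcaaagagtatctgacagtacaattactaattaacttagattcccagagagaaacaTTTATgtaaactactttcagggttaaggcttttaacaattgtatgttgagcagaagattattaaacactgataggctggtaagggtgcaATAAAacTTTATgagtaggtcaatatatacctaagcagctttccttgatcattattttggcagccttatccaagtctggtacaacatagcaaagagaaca
The CDX2 window held TTTAT at 2 places, starting 179 and 120 bases before the start, and the second overlapped its 1 AGATAA match, so that the pair reads as a single capital run. In the SI window TTTAT occurred at 4 places, a pair of them 50 and 43 bases before the start. CAAAGTCCA was in neither window. Over all 35116 windows of the same length, TTTAT was present in 34.9%, AGATAA in 10.3% and CAAAGTCCA in 0.384%. These shares count windows with at least 1 match, so they do not bear on the number of matches in a window. The SI window was 32.7% GC and the CDX2 window 50.3%. A match describes letters and does not show binding.

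CDX2 and PDX1 lie side by side on chromosome 13, with another homeobox gene, GSX1, in what is called the ParaHox cluster. The nearest measured coding genes around them were also higher in the resistant library. The nearest measured coding genes before CDX2 were LNX2, a ubiquitin ligase gene, at 4.53-fold and POLR1D, an RNA polymerase subunit gene, at 4.57-fold. Those after it were PAN3, of the poly(A) nuclease complex, at 3.93-fold and POMP, a proteasome assembly factor gene, at 6.02-fold. Over the 5 nearest measured coding genes on each side, the log2 ratio ran from 1.60 to 2.69 with a median of 2.25, or 4.77-fold. All 10 of 10 were at least 2-fold higher, against 5.47% of coding genes. CDX2, at 2.85, lay above each of these 10, but the intervals of 4 of them overlapped its own, which began at 6.07-fold. GTF3A, a transcription factor gene of the 5S ribosomal RNA, was at 6.44-fold (interval 6.25 to 6.65) and SLC46A3, a lysosomal carrier gene, at 6.35-fold (interval 5.69 to 7.10), so counting error does not set CDX2 apart from them. Extending the set to 10 on each side left 0 of 20 above CDX2. Of the 210 coding genes measured on chromosome 13, CDX2 ranked 3 and BRCA2, at 5.53-fold (7585 and 1381 counts), ranked 10. BRCA2 is the gene whose amplification the series title names. The values used here are RNA levels only, and a part of DNA copy number in the level of CDX2 was not tested.

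**Figure D2:**
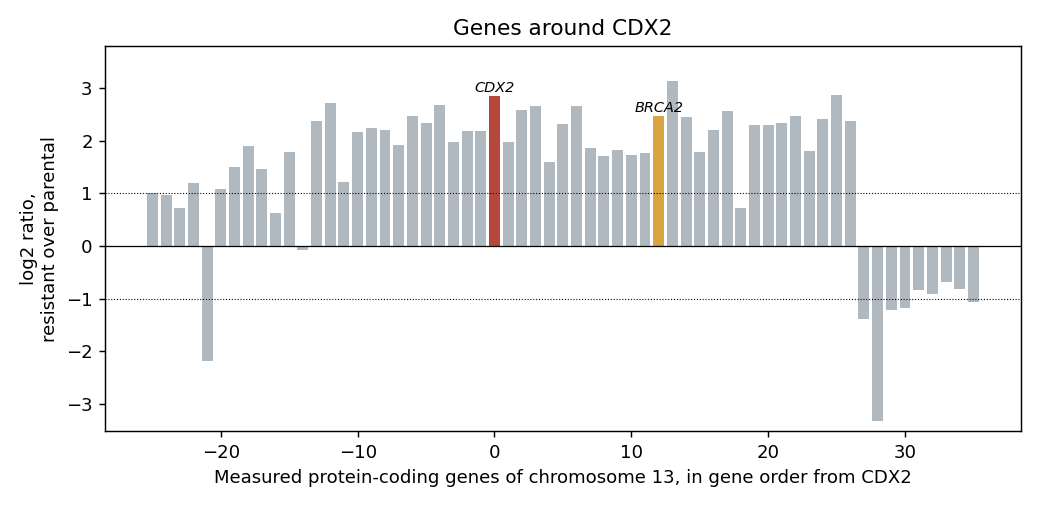
Log2 ratio, resistant over parental, of measured protein-coding genes of chromosome 13 by their place in gene order relative to CDX2 (red), with BRCA2 in gold. Dotted lines mark 2-fold, and CDX2 at 2.85 stands above its 10 nearest neighbours on either side.

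Between PDX1 and CDX2 lies the non-coding gene LINC00543, singled out here after its values were seen. It had 222 resistant and 39 parental counts, a ratio of 5.73 (interval 4.06 to 8.27). The interval of LINC00543 overlapped that of CDX2. FLT3, a coding gene beyond CDX2 that encodes a blood cell receptor, had 0 resistant and 2 parental counts. GSX1 and URAD, also coding genes of this stretch, had no row. A missing row is not read here as a measured absence. FLT3 was thus not detected at a higher level, though at its counts no ratio can be given. Among non-coding genes of the stretch, PAN3-AS1 had 740 resistant and 117 parental counts, and the pseudogene ATP5F1EP2 had 5 and 4.

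PDX1 (ENSG00000139515, chromosome 13) had 16 resistant and 7 parental counts, or 0.075 and 0.032 FPKM. The ratio was 2.30 with an interval of 0.896 to 6.61. That interval holds both equal levels and the median of 4.81-fold over the 10 nearest measured coding genes of PDX1, so at this depth PDX1 can be set apart from neither. PLUT, a long non-coding RNA gene next to PDX1, had 1 resistant count and 0 parental counts. Genes that PDX1 and islet cells are known for were near the floor of detection. Of 16 listed, 1 reached 50 counts. SYT13, a synaptotagmin gene, had 295 resistant and 55 parental counts, 5.40-fold higher. IAPP, islet amyloid polypeptide, had 15 and 8 counts, and SLC2A2, the glucose transporter GLUT2 that is also an HNF4 target, had 18 and 0.

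CDX1 (ENSG00000113722, chromosome 5), the paralog of CDX2, had 2 resistant and 0 parental counts. Both are at or under the floor of 3 counts used here, so no ratio is given. CDX2 therefore made up 99.6% of the summed CDX1 and CDX2 FPKM in the resistant library, and CDX1 was listed at 0 in the parental one. The 10 measured coding genes around CDX1 had a median log2 ratio of 0.16, and 0 of 10 were past 2-fold.

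HNF4A (ENSG00000101076, chromosome 20) had 1071 resistant and 682 parental counts. These were 3.77 and 2.30 FPKM. The ratio of 1.58 had a counting interval of 1.43 to 1.74, which lies above equal levels and below 2-fold. Its log2 ratio of 0.66 was higher than that of each of its 10 nearest measured coding genes, which ran from -0.68 to 0.56 with a median of -0.29. HNF4A was thus higher in the resistant library where the middle of its neighbours was lower.

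HNF4A has 2 promoters, one known mainly from adult liver and one from pancreas and stomach, and the deposited value is a single count for the whole gene. Both starts are shown because the counts cannot be divided between them. The upstream window lies at chr20:44355449-44355748 and the downstream window at chr20:44400989-44401288, both on the plus strand of GRCh38.p14 from RefSeq, with the same 3 motifs in capitals.
HNF4A upstream start: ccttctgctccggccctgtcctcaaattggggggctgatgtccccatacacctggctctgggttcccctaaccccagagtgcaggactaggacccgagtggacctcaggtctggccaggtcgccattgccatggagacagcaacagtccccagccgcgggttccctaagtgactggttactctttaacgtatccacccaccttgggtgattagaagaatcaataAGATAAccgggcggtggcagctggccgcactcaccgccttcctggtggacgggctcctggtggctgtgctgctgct
HNF4A downstream start: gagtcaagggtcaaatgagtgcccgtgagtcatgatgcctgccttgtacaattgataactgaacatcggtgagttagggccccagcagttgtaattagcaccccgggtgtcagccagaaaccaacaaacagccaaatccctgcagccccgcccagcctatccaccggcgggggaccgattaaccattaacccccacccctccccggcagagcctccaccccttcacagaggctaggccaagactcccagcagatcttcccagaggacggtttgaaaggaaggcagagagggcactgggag
The upstream window held 1 AGATAA match, 26 bases before the start. The downstream window held none of the 3 motifs, and TTTAT and CAAAGTCCA were in neither window. Promoter windows were found for 3 of the 7 factors, CDX2, HNF4A and GATA6. The GATA6 window, not shown, held 1 TTTAT match, 30 bases before the start.

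HNF4G (ENSG00000164749, chromosome 8) was the most abundant of the 7 in both libraries. It had 3709 resistant and 2722 parental counts, or 10.4 and 7.29 FPKM. The ratio was 1.37 (interval 1.31 to 1.44) and the log2 ratio 0.46. Of its 10 nearest measured coding genes, 4 had a higher ratio, and their median was 0.24. HNF4G exceeded HNF4A 2.75-fold in FPKM in the resistant library (interval 2.57 to 2.94) and 3.17-fold in the parental library (interval 2.91 to 3.45). Together the 2 receptors summed to 14.1 resistant and 9.59 parental FPKM, and HNF4G was 73.3% and 76.0% of that sum.

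GATA6 (ENSG00000141448, chromosome 18) had 615 resistant and 628 parental counts, or 3.51 and 3.44 FPKM. The ratio of 0.986 had an interval of 0.881 to 1.10, so the libraries could not be told apart on counting error. GATA6-AS1, the antisense gene at the GATA6 promoter, had 47 resistant and 33 parental counts, a ratio of 1.43 (interval 0.899 to 2.31). Whether strand was used in counting is not given in the sources used here, so reads of GATA6 and GATA6-AS1 in their shared stretch cannot be told apart. The 10 measured genes around GATA6 had a median log2 ratio of 0.27.

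GATA4 (ENSG00000136574, chromosome 8) had 157 resistant and 243 parental counts, or 0.706 and 1.05 FPKM. It was 1.54-fold lower (interval 1.25 to 1.89), with a log2 ratio of -0.62. GATA4 was the 1 factor of the 5 at the count minimum whose interval lay below equal levels. Its 10 nearest measured coding genes had a median of -0.18, and 8 of them had a higher ratio than GATA4. GATA6 exceeded GATA4 4.98-fold in FPKM in the resistant library (interval 4.17 to 5.97) and 3.29-fold in the parental library (interval 2.83 to 3.83).

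Within the GATA family the order of levels differed between the libraries. GATA3, a factor best known in T cells and mammary luminal cells, had 486 resistant and 1884 parental counts. It was 3.85-fold lower (interval of the ratio 0.235 to 0.287). In FPKM GATA3 was 2.33 times GATA6 in the parental library (interval 2.12 to 2.55) and 0.613 times GATA6 in the resistant library (interval 0.543 to 0.691). GATA6 made up 53.5% of the family's summed FPKM among resistant values and 27.2% among parental ones, at nearly the same level of its own. The sum itself was 6.57 FPKM in the resistant and 12.6 in the parental library. GATA2 had 32 and 18 counts. GATA5, an endodermal factor, had 0 and 10, at least 3.31-fold lower against the floor of 3 counts. The GATA cofactor gene ZFPM1 had 105 and 172 counts, a log2 ratio of -0.70.

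**Figure D3:**
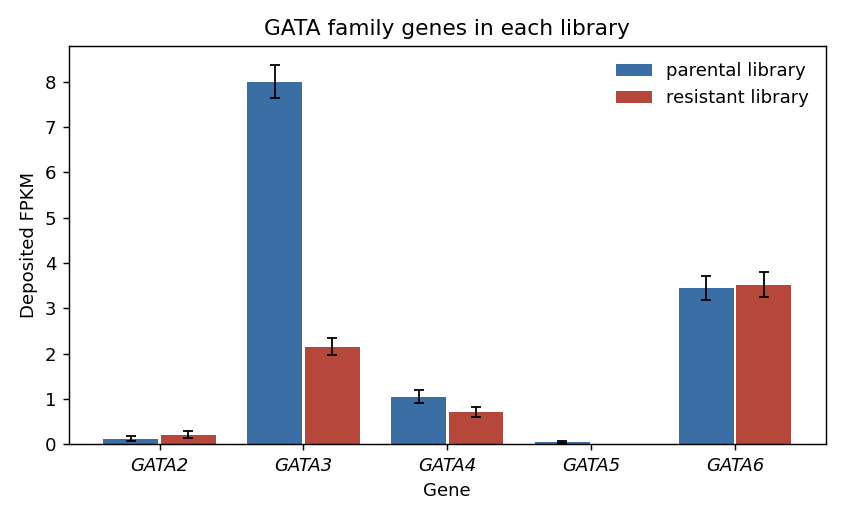
Deposited FPKM of 5 GATA family genes in the parental library (blue) and the resistant library (red), with 95% counting intervals. GATA3 was the highest in the parental library and GATA6 in the resistant library, where GATA5 was at 0.

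By FPKM, the order in the resistant library was HNF4G, HNF4A, GATA6, CDX2, GATA4, PDX1 and CDX1. HNF4A and GATA6 could not be ordered there, with a ratio of 1.07 and an interval of 0.970 to 1.19. CDX2 was at 0.860 times GATA6 (interval 0.778 to 0.952). In the parental library the order was HNF4G, GATA6, HNF4A, GATA4, CDX2, PDX1 and CDX1. CDX2 there was at 0.117 times GATA6 (interval 0.0971 to 0.141) and 0.385 times GATA4 (interval 0.311 to 0.475). In the resistant library CDX2 was 4.28 times GATA4 (interval 3.61 to 5.09). CDX2 thus lay below GATA4 in one library and above it in the other, and close to GATA6 in the resistant one. These ratios compare genes by the authors' length adjustment, whose errors the intervals do not hold.

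Most other regulators of gut, pancreas and stomach lay within 2-fold. Of 82 listed in 5 groups, 63 had a row and 39 reached 50 counts. One of the 39 was called higher, where the share of coding genes was 5.47%, and 7 were called lower, where it was 8.75%, and 31 lay within 2-fold. Their median log2 ratio was -0.61 against 0.09 over coding genes, and 11 of 39 were above 0. The 1 higher gene was PPARGC1A, a coactivator of HNF4A, with 77 resistant and 37 parental counts (2.09-fold). None of the 39 reached the ratio of CDX2.

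In the group around the hepatocyte nuclear factors, 12 of 18 genes with a row reached the minimum, of which 1 was higher (5.47% of coding genes) and 3 were lower (8.75% of coding genes). NR1H4, the bile acid receptor FXR, was 8.02-fold lower with 39 resistant and 315 parental counts. FOXA2, a pioneer factor of endoderm, was 4.08-fold lower with 38 and 156 counts, and ONECUT3 was 2.73-fold lower with 39 and 107. FOXA1, another pioneer factor, had 116 and 141 counts, and the interval of its ratio held equal levels. NR5A2, a nuclear receptor of pancreas and gut, had a log2 ratio of 0.86, and ONECUT2 one of 0.72. NR0B2, the repressor SHP that FXR induces, had 18 and 4 counts, under the minimum.

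Of the intestinal regulators, 0 of 13 were higher and 2 were lower, both counts near the 5.47% and 8.75% of coding genes. CREB3L1, a secretory pathway factor, was 5.0-fold lower with 114 resistant and 574 parental counts, and ELF3, an epithelial ETS factor, 2.06-fold lower with 4168 and 8640. With upper quartile scaling ELF3 had a log2 ratio of -0.97 and was no longer called. ISX, an intestine-specific homeobox gene known as a CDX2 target, had 28 resistant and 0 parental counts, at least 9.40-fold higher, but lay under the minimum. SPDEF, a goblet cell factor, had a log2 ratio of -0.47. Among pancreas regulators 0 of 10 were past 2-fold in either direction, from PAX6 at -0.85 to ISL1 at 0.75. Those of stomach and foregut had 0 of 3 higher and 1 lower, where 5.47% and 8.75% of coding genes were. The lower one was TP63, a squamous factor, 2.52-fold lower with 24 and 61 counts, and it was not called at a minimum of 200 counts or at 4-fold. SOX2, a foregut factor, had a log2 ratio of 0.53.

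**Figure D4:**
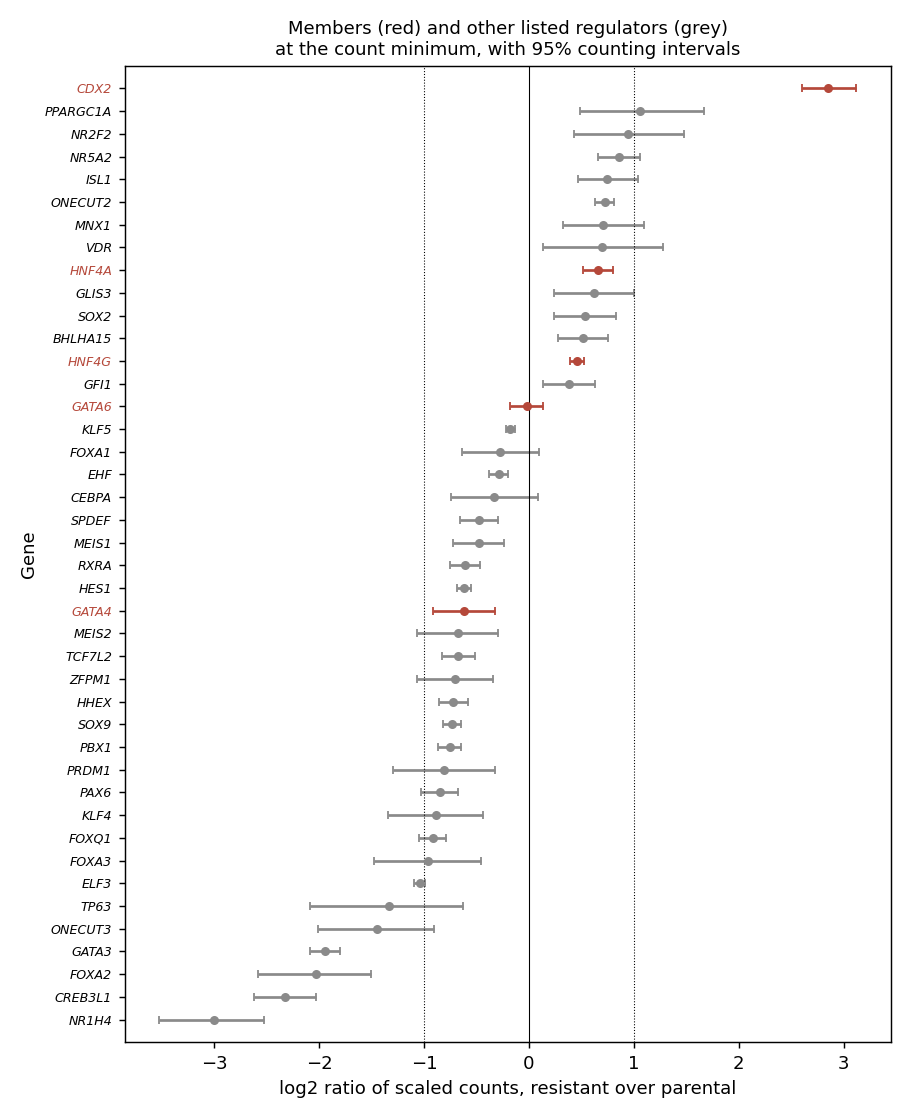
Log2 ratio of scaled counts, resistant over parental with no count added, of the 5 factors at the count minimum (red) and 37 of the 39 other listed regulators (grey), with 95% counting intervals. Dotted lines mark 2-fold, and CDX2 stands apart from the regulators drawn, at the top, while GATA6 sits near 0.

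Likeness to each factor was taken as the smallest absolute difference in log2 ratio over these 2 libraries, among the 39 regulators. With 2 libraries the pattern of a gene is this 1 value. For HNF4A the closest were VDR, the vitamin D receptor, at 0.69 and MNX1, a pancreatic homeobox factor, at 0.70, against its 0.66. For HNF4G they were BHLHA15, a factor of secretory cells, at 0.51 and GFI1, a repressor in gut secretory lineages, at 0.38. HES1, a Notch effector, at -0.62 and RXRA, the partner of many nuclear receptors, at -0.61 were the closest to GATA4. KLF5, a factor of proliferating gut epithelium, at -0.18 was the closest to GATA6. CDX2 had no close match among the 39, since PPARGC1A at 1.05 and NR2F2, an orphan nuclear receptor, at 0.94 were the nearest. Coding genes of chromosome 13 outside the 39 came closer to its 2.85, among them EXOSC8 at 2.86 and GTF3A at 2.69.

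Genes of the intestinal epithelium, many of them known CDX2 targets, were mostly higher in the resistant library. Of 30 listed, 20 reached the minimum, 14 were higher by the 2-fold rule and 3 lower (5.47% and 8.75% of coding genes), with a median log2 ratio of 2.03 against 0.09 over coding genes. The list was written with results of these libraries known, so its direction is no independent evidence. SI was at a ratio of 111 (330 and 3 counts, interval 37.6 to 540), and ANXA13, an intestinal annexin, at 102-fold (1217 and 12 counts). CDH17, the cadherin of enterocytes and a CDX2 target, had 6138 and 85 counts (72.7-fold). HEPH, the ferroxidase of iron-absorbing enterocytes, had 292 and 0 counts, at least 98.0-fold higher. FABP2, the intestinal fatty acid binding protein and a target of GATA and HNF4 factors, had 93 and 0 counts, at least 31.2-fold higher. The members of the list did not all move one way. CEACAM5, carcinoembryonic antigen, was 4.18-fold lower, SLC5A1, the glucose carrier SGLT1, 4.05-fold lower and TRIM31 2.11-fold lower. MUC2, the goblet cell mucin known as a CDX2 target, had 2 and 1 counts. Whether CDX2 has a part in these differences was not tested.

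Known HNF4 targets went both ways. Of 32 listed, 8 reached the minimum, with 3 higher, 3 lower and a median of -0.31, where 5.47% of coding genes were higher and 8.75% lower. At a minimum of 10 counts 5 were higher and 5 lower, at 200 counts 1 and 1, and at 4-fold 1 and 0. MTTP, which loads lipid onto apolipoprotein B, had 84 resistant and 2 parental counts (ratio 42.3, interval 11.3 to 355). TM4SF4 was 3.70-fold higher with 1048 and 285 counts. ACOX2, of bile acid synthesis, was 3.97-fold lower, CYP27A1, a sterol hydroxylase, 3.49-fold and ACSL5, a fatty acid ligase, 2.67-fold. APOA1, the apolipoprotein of HDL, had 2 and 3 counts. FABP2, named above as an HNF4 target (93 and 0 counts), was on the intestinal list and is not in this split. HNF4A and HNF4G were both higher but within 2-fold. Whether the listed targets follow them was not tested.

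Stomach epithelium genes, by contrast, were mostly lower, with 7 lower and 1 higher of the 13 at the minimum (8.75% and 5.47% of coding genes) and a median of -1.66. BPIFB1, a secreted mucosal protein, had 12 resistant and 1127 parental counts, 93.3-fold lower. LYZ, lysozyme, was 19.5-fold lower, PGC, the pepsinogen C gene, 13.7-fold with 8 and 110 counts, and PSCA 9.71-fold. MUC6, the mucin of stomach glands, was the exception at 3.37-fold higher. The other 5 lay within 2-fold, and some of these were abundant. ANXA10 was at 258 resistant and 311 parental FPKM, TFF1 at 86.8 and 143, and CTSE at 37.2 and 67.0. The difference between the intestinal and the stomach list was not tested, and both were written with earlier results known.

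**Figure D5:**
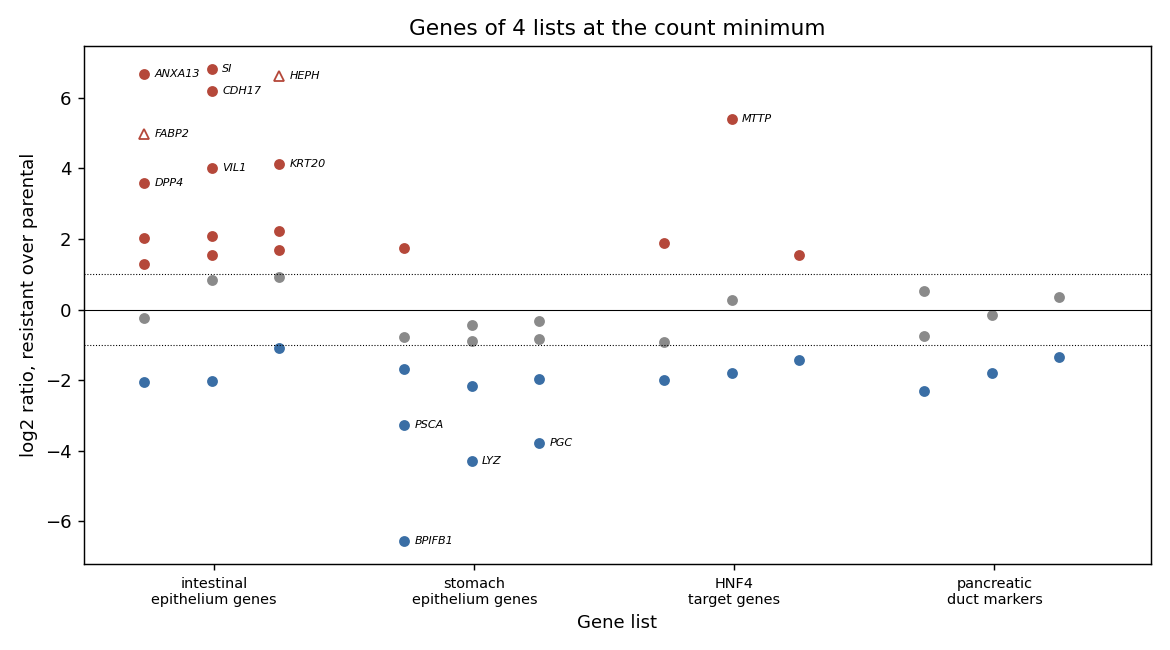
Log2 ratio, resistant over parental with no count added, of genes at the count minimum in 4 lists. Points past 2-fold (dotted lines) are red or blue, and open triangles are lower bounds of genes at 0 in the parental library. Of the intestinal genes 14 of 20 are above 2-fold, and of the stomach genes 7 of 13 are below it.

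The labels call the cells breast cancer, whereas Capan-1 is a pancreatic line, so marker lists were read for both. All 6 epithelial markers reached the minimum in both libraries, with log2 ratios of 0.32 to 0.85. Of the pancreatic duct markers 7 of 8 had a row, all at the minimum. Of these 7, 0 were higher and 3 lower, against 5.47% and 8.75% of coding genes. The lower ones were CA2 (4.89-fold), CFTR (3.47-fold) and MUC1 (2.54-fold). KRT7 and KRT19, the 2 of the 7 above 0, had log2 ratios of 0.54 and 0.35. Being the most abundant, they left the list's sum at 1368 FPKM in the resistant and 1038 in the parental library. Mammary markers summed to 7.08 FPKM in the resistant and 23.5 in the parental library, mostly AZGP1 (3.91-fold lower) and GATA3, and PRLR was 3.46-fold lower, while ESR1 had 18 and 8 counts and PGR 1 and 4. Of acinar markers PRSS1 alone reached 50 counts. Stroma markers summed to 3.11 FPKM in the resistant and 0.668 in the parental library, with 3 of 10 at the minimum. LUM (523 and 35 counts) was most of the resistant sum, and ACTA2 (106 and 53 counts) was the largest part of the parental one. COL1A1 was 2.54-fold lower and DCN had 5 and 0 counts. Leukocyte markers summed to 3.92 and 2.90 FPKM, mostly CD68, and CD3E had 1 count in each library. The part of these markers in the differences above was not tested.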

How the data were processed

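RNA was sequenced from 1 parental and 1 resistant library, prepared per the labels' protocols with Trizol and a strand-specific ScriptSeq kit. The deposited table gives whole-number counts per Ensembl gene with no normalization, and FPKM values that the authors computed, per the file headers. Per the submitters' processing notes, RSEM 1.2.3 and hg19 were involved, with no role stated. For the annotation and the strand setting, nothing is given in the sources used here. Totals were 34507480 counts in the resistant and 34572931 in the parental library, so counting error is wide only for genes with low counts. Variation between libraries was not measured for any gene.

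Symbols came from a gene name table and GENCODE release 29, matching 29719 of 31845 identifiers. GENCODE is on another build and served for names, gene order and overlaps only. Where the members' rule calls for it, a gene without a row counts as 0. All 7 members had a row. Promoter windows are RefSeq's on GRCh38.p14.

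Counts were scaled with TMM factors (edgeR 4.0.16, R 4.3.3). Log2 ratios used a prior of 1 count, ratios and folds none. Intervals are exact conditional (Clopper-Pearson) for ratios and exact Poisson for FPKM. Against 0, a fold is a bound with a floor of 3 counts per library. With 1 library per group no test was run. Neighbours are the nearest 5 coding genes on each side with at least 50 counts. The ratio and interval calculations were tested on simulated counts with counting error only. That check covers neither the scaling nor variation between libraries. The members and lists were chosen with earlier results of these data known. The rule named all members, their antisense genes, BRCA2, the 2 nearest measured neighbours of CDX2 on each side, regulators past 2-fold, up to 4 genes per direction and list past 2-fold, and the 2 closest regulators to each member. Some genes that the rule selects are not reported here, though the list counts include them. Any other gene named was picked with its values in view. The alternatives tried were scaling (DESeq2 1.42.0 size factors, upper quartile, totals), priors of 0.5 and 5 counts, other count minimums and fold sizes, the deposited FPKM values and other numbers of neighbours. TMM without chromosome 13, and coding genes alone as the background, were added once the data had been seen. Software was scipy 1.17.1, pandas 2.3.3, numpy 2.4.6 and matplotlib 3.10.9 under Python 3.11.15.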

Additional observations from a re-analysis of the deposited data

How the results depend on the processing

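No paired analysis was possible because each group has 1 library, and for the same reason no library could be left out. Over 42 values of the 6 factors with a ratio, 0 moved outside the counting interval. CDX2 stayed at a log2 ratio of 2.81 to 2.92 and HNF4A at 0.65 to 0.73, while PDX1 ranged from 0.81 to 1.23. GATA6 ranged from -0.03 to 0.05, so its sign depends on the scaling. The largest shift of the all-gene median by a scaling was 0.07 (upper quartile).

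Counts of called genes followed the minimum and the fold size by construction. Among coding genes, higher and lower calls numbered 1093 and 1749 at 10 counts, 399 and 639 at 200 counts and 1949 and 2595 without a minimum, 2000 and 2575 at 1.5-fold and 188 and 209 at 4-fold. Among all genes they numbered 906 and 1352, then 1975 and 2821 at 10 counts, 474 and 741 at 200 counts, 5565 and 5887 without a minimum, 2541 and 3209 at 1.5-fold and 252 and 250 at 4-fold. The other regulators had 6 higher and 13 lower at 10 counts, 0 and 4 at 200 counts, 8 and 18 without a minimum, 8 and 20 at 1.5-fold, and 0 and 2 at 4-fold. Under upper quartile scaling 2 were higher, with NR2F2 gained at 1.01, and 6 lower, with ELF3 lost at -0.97. The intestinal list kept within 1.5 times of its 14 higher and 3 lower genes under these alternatives. Over the other lists, the 7 factors included, 69 of 270 counts moved by more than that. Pancreas regulators went from 0 in either direction to 3 higher and 5 lower at 1.5-fold, and HNF4 targets from 3 and 3 to 1 and 1 at 200 counts and 7 and 7 without a minimum. Of the 7 factors, 1 was higher and 0 lower, then 2 higher at 10 counts with PDX1, 3 without a minimum with CDX1 too, and 2 higher and 1 lower at 1.5-fold. CDX1 and PDX1, with 2 and 16 resistant counts, are thus left uncalled by the minimum of 50, and at their depth the interval of PDX1 holds equal levels.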
